A study of Mus musculus with 16 samples.

Results

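The principal neurons of the hippocampus fall into subfields that can be told apart by the genes they express, and the 30 genes described here are markers of those subfields. In list order, 11 mark granule cells of the dentate gyrus (Prox1 to Fam163b), 9 mark pyramidal cells of field CA1 (Wfs1 to Gpr161) and 10 mark pyramidal cells of fields CA2 and CA3 (Cpne9 to Prss23). All are listed as markers of their cells, and Fam163b was added for its measured fall after seizures in these same arrays. The falls of Dsp and Lct in these arrays were also known when the genes were listed, so their tests are no independent evidence. Of the 30 genes, 29 were measured, among 22180 genes in all. The dentate gene C1ql3, which encodes a secreted organiser of synapses, had a probe set shared with a second gene symbol, Pter, and is not analysed here. Values chose Fam163b, so its values in the seizure comparisons are a description with no test, which left 28 tested genes in those comparisons and 29 in the comparisons of genotype. Each gene was read in RNA of the whole hippocampus, and no array held a separated subfield.

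Each of the 16 Affymetrix arrays held RNA from the hippocampus of a C57BL/6 mouse aged 8 to 10 weeks, with 4 arrays in each of 4 groups. Control mice carried the label wild type with a cre active in glia, and Astro-D2KO mice carried a floxed D2 (the type 2 deiodinase gene Dio2, which makes active thyroid hormone in astrocytes) with the same glial cre. Both genotypes were primed with lithium chloride (10 mEq/kg) and were injected after 18 h with saline or with pilocarpine (65 mg/kg), a muscarinic agonist given to bring on a lasting seizure state, status epilepticus (SE). The question behind the design was how SE alters the acute gene response of the hippocampus and thyroid hormone metabolism in it. The saline mice also had lithium, every SE mouse had pilocarpine, and so the drug and the seizure cannot be told apart. Not given in the sources used here are the promoter that drives cre, the sex of the mice, the time from pilocarpine to dissection and any batch. The labels number the mice within a group but name no litter or day, so p-values measure the spread between these samples.

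In the dentate gyrus, granule cells receive cortical input and send mossy fibres to the large spines of CA3 pyramidal cells, which in turn project to CA1. CA2 lies between CA3 and CA1 and is known for synapses that resist long-term potentiation. Some of the markers build the identity of their cells, such as Prox1, the homeobox factor that keeps granule cells from a CA3 fate, whereas others are enzymes or adhesion molecules with no known part in identity. Granule cells are known to alter many of their characteristic genes after seizures, calbindin among them.

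The promoters of the genes with the largest changes are shown here because they place each gene on the genome and because their base composition differs. RefSeq promoter sequences of build GRCm38.p6 were held for 22 of the 30 genes, and each window printed is the 250 bases before the start of transcription, read 5′ to 3′ on the strand of the gene. Dsp lies on the plus strand (chr13:38151044-38151293), Lct on the minus strand (chr1:128328319-128328568), C1ql2 on the plus strand (chr1:120340332-120340581), Fam163b on the minus strand (chr2:27142478-27142727) and Nectin3 on the minus strand (chr16:46496968-46497217). Capitals mark a match to a searched motif.
Dsp: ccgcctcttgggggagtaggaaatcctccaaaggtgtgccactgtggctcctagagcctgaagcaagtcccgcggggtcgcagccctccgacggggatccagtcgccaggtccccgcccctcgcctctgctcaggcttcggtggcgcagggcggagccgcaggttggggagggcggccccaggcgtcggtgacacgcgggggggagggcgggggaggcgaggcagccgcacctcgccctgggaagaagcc
Lct: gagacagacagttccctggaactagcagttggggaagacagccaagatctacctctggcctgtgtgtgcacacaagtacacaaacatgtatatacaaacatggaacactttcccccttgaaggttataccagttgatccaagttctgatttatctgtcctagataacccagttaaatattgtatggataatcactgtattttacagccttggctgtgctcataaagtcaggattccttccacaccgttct
C1ql2: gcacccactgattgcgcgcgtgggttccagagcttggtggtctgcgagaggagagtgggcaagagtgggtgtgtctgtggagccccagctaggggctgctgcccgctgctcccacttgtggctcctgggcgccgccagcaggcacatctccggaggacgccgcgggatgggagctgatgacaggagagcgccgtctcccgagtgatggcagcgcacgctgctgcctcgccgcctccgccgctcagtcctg
Fam163b: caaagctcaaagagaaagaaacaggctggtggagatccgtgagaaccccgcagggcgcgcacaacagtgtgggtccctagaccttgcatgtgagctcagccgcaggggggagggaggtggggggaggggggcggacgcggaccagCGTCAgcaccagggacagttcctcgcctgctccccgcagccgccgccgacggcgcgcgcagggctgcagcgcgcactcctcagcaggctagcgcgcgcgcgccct
Nectin3: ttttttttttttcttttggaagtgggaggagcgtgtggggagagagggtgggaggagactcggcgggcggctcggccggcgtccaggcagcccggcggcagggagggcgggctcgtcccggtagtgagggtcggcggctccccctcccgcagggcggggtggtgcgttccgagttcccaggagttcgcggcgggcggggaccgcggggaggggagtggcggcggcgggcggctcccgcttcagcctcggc

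The windows of Dsp, C1ql2, Fam163b and Nectin3 were rich in CpG pairs, with 22, 20, 25 and 30 of them, against a median of 6 over the 32851 promoter windows of the same length. Lct had 1 CpG in its window and a GC content of 42.8%, against 72.4% for Dsp, 68.8% for C1ql2, 70.0% for Fam163b, 73.2% for Nectin3 and a median of 52.4% over all windows. The 5 motifs were searched on both strands: the AP-1 site TGANTCA, found in 6.75% of all windows, the CRE site TGACGTCA in 1.55%, the short CRE core TGACG in 17.8%, the EGR site GCGTGGGCG in 0.536% and the thyroid hormone response core AGGTCA in 14.0%. The CRE site contains the short core, so a match to the first is also a match to the second. The Fam163b window held a short CRE core whose match begins 105 bases before the start, on the opposite strand, and the windows of Dsp, Lct, C1ql2 and Nectin3 held no match to any of these letters. A match or its lack is a description of letters and says nothing about binding.

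Dio2, the targeted gene, set 2 SE arrays apart from the rest of their groups. In control SE mice its log2 level was 9.51, 9.11 and 9.24 in replicates 1 to 3 but 7.99 in the array labelled as replicate 4, which is within the range of the control saline arrays, above the Astro-D2KO saline arrays and without the rise of its group. That array also had the lowest mean level of 12 immediate early genes among the SE arrays, 9.18 against 9.94 to 10.16 in the rest of its group and 9.59 to 9.98 in Astro-D2KO SE arrays. In the array labelled Astro-D2KO SE replicate 1 it was 8.91, against 7.03, 7.17 and 7.12 in the rest of its group, which goes against its label. Under saline the genotypes did not overlap, at 7.87, 8.25, 8.17 and 8.28 in control and 6.75, 6.52, 7.09 and 6.77 in Astro-D2KO mice. Whether the labels of these 2 arrays were exchanged was not tested. The results after SE were therefore computed with and without both of them. Values without them are given for each subfield gene past the threshold. They are also given where leaving them out altered the call of a subfield gene. The same holds where its change within a genotype turned sign or moved by over 1.5 times. For differences in response and for other gene lists, values without them are given only in part. Pairwise Pearson correlations between arrays over all genes lay between 0.969 and 0.990. All values are log2 RMA levels, changes are differences of log2 group means with the standard error of the limma fit, and a gene is said to have risen or fallen where the limma p-value adjusted over all 22180 genes was below 0.05. A level belongs to its own probe set, so levels are compared between arrays and not between genes.

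After SE, the dentate genes Dsp and C1ql2 fell and the dentate gene Btbd3 and the CA3 gene Nectin3 rose in both genotypes, while no CA1 gene passed the test within a genotype. No test compared the subfields with each other. In control mice 2 of the 28 tested genes rose, Btbd3 and Nectin3, and 4 fell, Dsp, Lct, C1ql2 and Rgs14. Over all genes 8.42% rose and 13.7% fell in that comparison. Of the 9 tested dentate genes, 1 rose and 3 fell, none of the 9 CA1 genes passed the test, and of the 10 CA2 and CA3 genes 1 rose and 1 fell. An unadjusted limma p below 0.05 was found for 1 of the 9 CA1 genes in control mice, against 33% of all genes. In Astro-D2KO mice 2 genes rose, again Btbd3 and Nectin3, and 3 fell, Dsp, C1ql2 and Cpne9, where 7.49% of all genes rose and 12.6% fell. With the genotypes averaged, 3 rose, Btbd3, Nectin3 and Man1a, and 6 fell, Dsp, Lct, C1ql2, Plk5, Cpne9 and Rgs14. Over all genes 12.1% rose and 20.6% fell in the averaged comparison. These shares of the subfield genes were near those of all genes, so the counts are no result about the subfield genes. In bulk tissue, fewer cells of a type and less RNA per cell cannot be told apart.

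**Figure D1:**
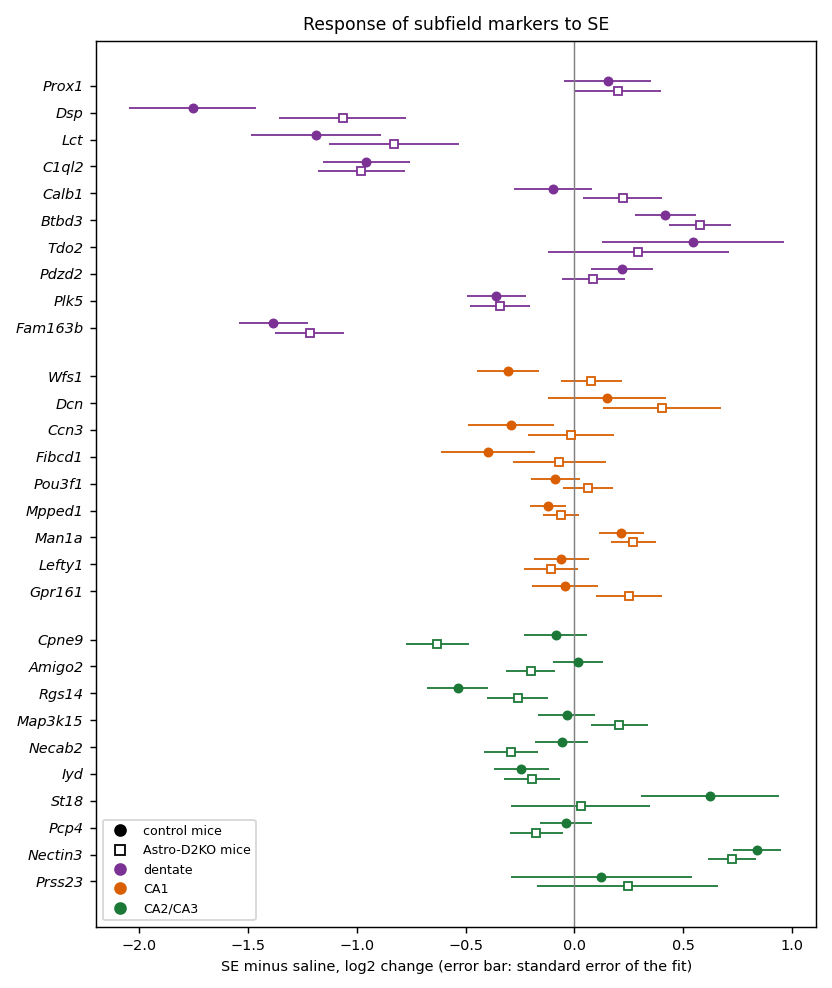
Log2 change from saline to SE (x axis) of the 29 measured subfield markers (rows, grouped by subfield), in control mice (filled circles) and Astro-D2KO mice (open squares), with bars of 1 standard error of the limma fit. Dsp, Lct, C1ql2 and Fam163b lie farthest to the left and Nectin3 farthest to the right, while the CA1 markers lie between -0.40 and 0.40.

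Dsp, which encodes desmoplakin, the protein that ties desmosomes to intermediate filaments, had the largest fall among the tested genes. Its log2 level in control mice was 7.11, 7.51, 8.08 and 7.72 under saline and 6.11, 5.41, 5.35 and 6.53 after SE. The groups did not overlap, and the fall of 3.38-fold was a log2 change of -1.75 ± 0.29 (standard error; limma adjusted p = 0.000344). In Astro-D2KO mice the levels were 7.23, 6.998, 8.08 and 6.64 under saline and 5.78, 6.51, 6.19 and 6.21 after SE. The groups again did not overlap, by a gap smaller than the spread within either of them, and the log2 change was -1.06 ± 0.29 (limma adjusted p = 0.0151). The Astro-D2KO fall lost the threshold without the array labelled Astro-D2KO SE replicate 1 (-0.93, adjusted p = 0.0524) or without Astro-D2KO saline replicate 3 (-0.78, adjusted p = 0.0573). Without both doubted arrays it was -0.93 with an adjusted p of 0.0341, and the control fall was -1.98 with an adjusted p of 0.00018. The fall was smaller in Astro-D2KO than in control mice by 0.69 on the log2 scale, with a 95% interval of that difference from -0.18 to 1.56 and an adjusted p of 0.998, and without both doubted arrays the difference was 1.05 (adjusted p = 0.69).

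Lct encodes lactase, the intestinal enzyme that splits milk sugar, and is also a marker of granule cells. In control mice its log2 level was 6.32, 6.43, 7.69 and 7.37 under saline and 6.09, 5.36, 5.802 and 5.79 after SE. All SE arrays lay below all saline arrays, though saline replicates 3 and 4 lay well above the other saline arrays, and the log2 change was -1.19 ± 0.30 (limma adjusted p = 0.00771). In Astro-D2KO mice the levels were 6.31, 6.64, 7.38 and 5.85 under saline and 5.84, 5.53, 5.68 and 5.81 after SE. The lowest saline array and the highest SE array nearly met, and the log2 change of -0.83 ± 0.30 did not pass the test (adjusted p = 0.0595). Without Astro-D2KO saline replicate 4 that change was -1.06 with an adjusted p of 0.0178. With the replicate number as a block it was -0.83 with an adjusted p of 0.0485, and without both doubted arrays it was -0.87 with an adjusted p of 0.0947. The control fall without them was -1.20 (adjusted p = 0.0202). With the genotypes averaged the change of Lct was -1.01 ± 0.21 (limma adjusted p = 0.0011), and -1.04 without both doubted arrays (adjusted p = 0.00372).

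C1ql2, like C1ql3, encodes a secreted C1q-like protein that granule cells release at mossy fibre synapses, where it recruits kainate receptors. Its log2 level in control mice was 8.78, 8.66, 8.601 and 8.37 under saline and 8.13, 7.22, 7.30 and 7.93 after SE. In Astro-D2KO mice it was 8.95, 9.11, 8.61 and 8.16 under saline and 7.71, 7.70, 7.84 and 7.66 after SE. In neither genotype did the groups overlap, and the SE arrays of the Astro-D2KO mice were close together (SD 0.080 over 4 arrays, against 0.454 in the control SE arrays). C1ql2 fell by 0.957 on the log2 scale in control mice (standard error 0.199; limma adjusted p = 0.002) and by 0.979 in Astro-D2KO mice (standard error 0.199; adjusted p = 0.00194). The changes differed by -0.02 with a 95% interval from -0.61 to 0.57. With both doubted arrays left out, C1ql2 fell by 1.05 in control mice (adjusted p = 0.00287) and by 0.97 in Astro-D2KO mice (adjusted p = 0.00607), and the difference was 0.08.

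Fam163b, a little characterised gene, was listed because it fell. Its log2 level in control mice was 9.19, 9.72, 9.42 and 9.06 under saline and 7.75, 8.22, 8.27 and 7.62 after SE. In Astro-D2KO mice it was 9.10, 9.03, 9.35 and 8.89 under saline and 7.69, 7.82, 7.94 and 8.05 after SE. No SE array reached the lowest saline array in either genotype, and the log2 changes of -1.38 and -1.22 are a description. Leaving out both doubted arrays gave -1.27 and -1.16.

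Plk5, a member of the polo-like kinase family, passed the test when the genotypes were averaged (-0.35 ± 0.10, limma adjusted p = 0.0087). Its log2 levels were 5.89 to 6.601 in control saline, 5.70 to 6.13 in control SE, 5.85 to 6.33 in Astro-D2KO saline and 5.65 to 5.83 in Astro-D2KO SE arrays. Within genotypes the log2 changes were -0.36 and -0.34, with adjusted p of 0.0691 in control and 0.0904 in Astro-D2KO mice. Leaving out both doubted arrays gave an averaged change of -0.36 (adjusted p = 0.0209).

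Btbd3, whose protein directs dendrites toward active inputs, was the dentate gene that rose. Its log2 level in control mice was 7.41, 7.59, 7.81 and 7.76 under saline and 8.20, 7.78, 8.35 and 7.92 after SE. The control groups overlapped, since SE replicate 2 lay below saline replicate 3. The log2 change in control mice was 0.42 ± 0.14 (limma adjusted p = 0.0427), and it was not past the threshold in 7 of the 24 alternatives tried, with adjusted p of up to 0.144 there. Those 7 were array weights and leaving out control saline replicate 1 or 2, control SE replicate 1 or 3, or Astro-D2KO SE replicate 2 or 3. In Astro-D2KO mice the levels were 7.39, 7.65, 7.84 and 7.23 under saline and 8.00, 8.03, 8.07 and 8.33 after SE, which did not overlap, and the rise was 0.58 ± 0.14 (adjusted p = 0.00766). The rises without both doubted arrays were 0.47 in control (adjusted p = 0.0471) and 0.61 in Astro-D2KO mice (adjusted p = 0.0131).

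The remaining dentate genes, Prox1, Calb1, Pdzd2 and Tdo2, did not pass the test in any SE comparison. Prox1 had group means between 8.74 and 8.95, with log2 changes of 0.15 ± 0.20 in control and 0.20 ± 0.20 in Astro-D2KO mice. The 95% interval of the averaged change, -0.12 to 0.47, leaves out falls of the size seen for Dsp. Calb1, which encodes the calcium buffer calbindin, had changes of -0.10 ± 0.18 and 0.22 ± 0.18, and without Astro-D2KO saline replicate 3 the latter became 0.45 with an adjusted p of 0.0275. The control change of Calb1 was -0.003 without both doubted arrays. Pdzd2, a protein with PDZ domains, had changes of 0.22 ± 0.14 and 0.09 ± 0.14, the latter 0.009 without both doubted arrays. Tdo2 encodes an oxygenase that breaks down tryptophan, and its changes of 0.55 ± 0.42 and 0.29 ± 0.42 had the widest errors of the dentate genes. With both doubted arrays left out, Tdo2 rose by 0.99 in control mice (adjusted p = 0.0178) and had a change of -0.08 in Astro-D2KO mice (adjusted p = 0.889). The signal of Tdo2 was low, with a mean level of 4.77 over all arrays, below the array medians of 5.77 to 5.82.

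**Figure D2:**
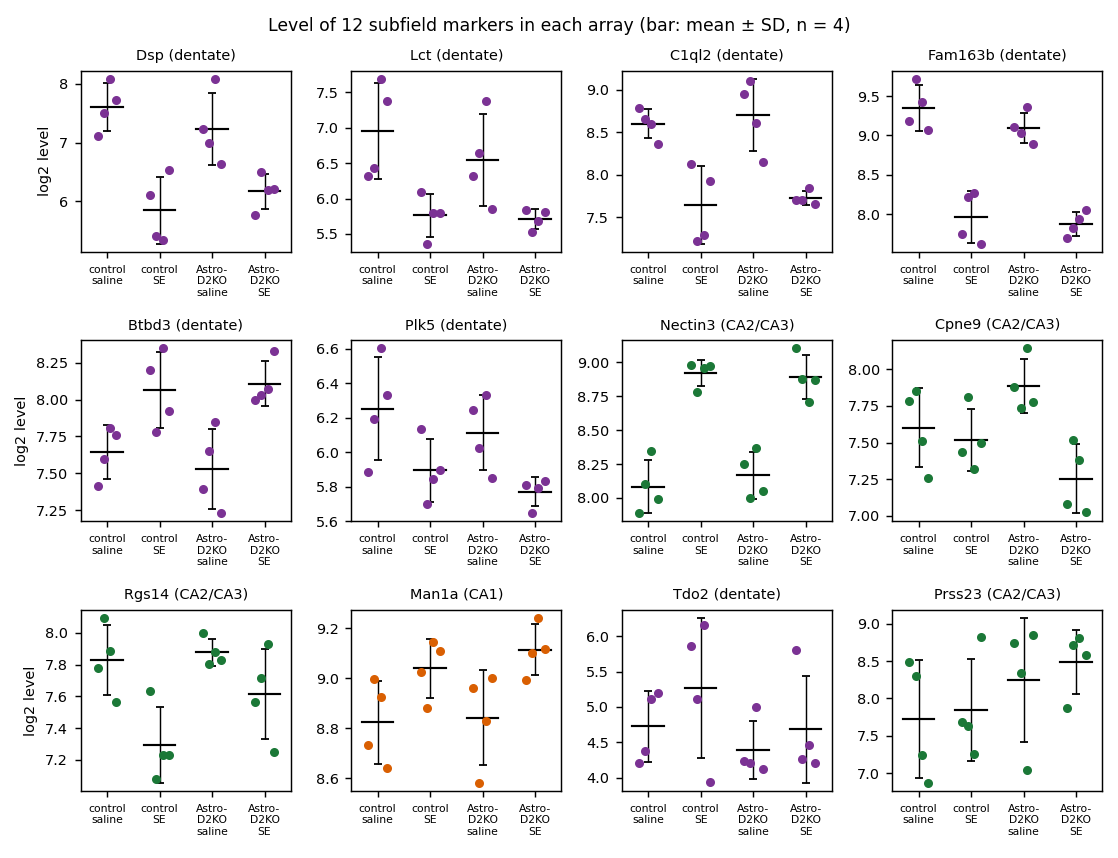
Log2 RMA level (y axis, a separate range in each panel) of 12 subfield markers in each of the 16 arrays (points) by group (x axis), with the mean and SD of 4 arrays. For Dsp, C1ql2, Fam163b and Nectin3 the SE arrays do not overlap the saline arrays of either genotype, whereas Tdo2 and Prss23 have single arrays far from the rest of their group, such as 3.94 for Tdo2 in control SE and 7.04 for Prss23 in Astro-D2KO saline.

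The CA1 markers had small log2 changes after SE. Their median change was -0.087 in control and 0.064 in Astro-D2KO mice, against -0.019 and -0.006 over all genes, and the range was -0.40 to 0.22 in control and -0.11 to 0.40 in Astro-D2KO mice. Without both doubted arrays the medians were -0.081 and -0.006, so that the sign in Astro-D2KO mice turned, and with single arrays left out they lay between -0.164 and -0.062 in control and between -0.006 and 0.121 in Astro-D2KO mice. The control median was -0.164 without control SE replicate 2, and the Astro-D2KO median was -0.006 without SE replicate 1, -0.004 without saline replicate 2, 0.026 without SE replicate 4, 0.034 without saline replicate 1 and 0.121 without saline replicate 4. Man1a, a mannosidase of the Golgi that trims glycans, rose when the genotypes were averaged (0.24 ± 0.07, limma adjusted p = 0.0155). Its log2 levels were 8.73, 9.00, 8.92 and 8.64 in control saline, 9.03, 8.88, 9.14 and 9.11 in control SE, 8.96, 8.58, 8.83 and 9.00 in Astro-D2KO saline and 8.99, 9.10, 9.24 and 9.12 in Astro-D2KO SE arrays. The groups overlapped in both genotypes. The rise corresponds to 1.18-fold, and it was 0.25 without both doubted arrays (adjusted p = 0.0256).

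Wfs1, which encodes the endoplasmic reticulum protein wolframin and outlines CA1, had levels of 9.58, 9.42, 9.69 and 9.60 in control saline arrays and 9.08, 8.91, 9.40 and 9.69 in control SE arrays. The highest of the SE arrays was the one labelled control SE replicate 4. With all arrays the log2 change was -0.30 ± 0.14 (limma adjusted p = 0.145), and without both doubted arrays it was -0.44 with an adjusted p of 0.0245. In Astro-D2KO mice the change was 0.08 ± 0.14, and without both doubted arrays 0.05.

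Dcn encodes decorin, a proteoglycan of the matrix that fibroblasts of the meninges also make, and its log2 levels ran from 6.92 to 8.77 over the 16 arrays. Its changes were 0.15 ± 0.27 and 0.40 ± 0.27. Of the 10 markers of leptomeningeal fibroblasts 0 rose and 2 fell in control mice, where 8.42% of all genes rose and 13.7% fell, and 0 rose and 0 fell in Astro-D2KO mice, where 7.49% rose and 12.6% fell. The mean log2 level of those 10 markers ranged from 6.58 to 7.04 in control saline, 6.29 to 6.75 in control SE, 6.22 to 6.94 in Astro-D2KO saline and 6.31 to 6.68 in Astro-D2KO SE arrays, and their part in the level of Dcn was not tested. Fibcd1, a receptor for acetylated sugars, had changes of -0.40 ± 0.22 and -0.07 ± 0.22, and Ccn3, a matricellular protein, of -0.29 ± 0.20 and -0.02 ± 0.20. With both doubted arrays left out, the changes were -0.29 and -0.25 for Fibcd1 and -0.14 and -0.12 for Ccn3. Pou3f1, a POU transcription factor, had changes of -0.09 ± 0.11 and 0.06 ± 0.11. The changes of Mpped1, a metallophosphoesterase domain protein, were -0.12 ± 0.08 and -0.06 ± 0.08. Lefty1, an inhibitor of Nodal signalling, had -0.06 ± 0.12 and -0.11 ± 0.12, and Gpr161, a receptor of cilia that restrains Hedgehog signalling, had -0.04 ± 0.15 and 0.25 ± 0.15. Leaving out both doubted arrays gave changes of -0.05 and -0.006 for Pou3f1, -0.08 and -0.04 for Lefty1, and -0.03 and 0.07 for Gpr161, none of them past the threshold.

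Nectin3, an immunoglobulin-like adhesion molecule of synaptic junctions that is rich in CA3, had the smallest p-value of the subfield genes. In control mice its log2 level was 7.89, 8.11, 8.34 and 7.99 under saline and 8.98, 8.78, 8.96 and 8.97 after SE. In Astro-D2KO mice it was 8.25, 8.00, 8.37 and 8.05 under saline and 9.10, 8.88, 8.71 and 8.87 after SE. Every SE array lay above every saline array, of both genotypes. Nectin3 rose by 0.84 ± 0.11 in control (1.79-fold; limma adjusted p = 3.7e-05) and by 0.72 ± 0.11 in Astro-D2KO mice (1.65-fold; adjusted p = 0.000172). Without both doubted arrays the rises were 0.82 and 0.65, both past the threshold.

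Rgs14, which encodes a regulator of G protein signalling that limits plasticity in CA2, fell in control mice. Its log2 level there was 7.78, 8.09, 7.88 and 7.56 under saline and 7.63, 7.08, 7.23 and 7.23 after SE. Only control SE replicate 1 reached the range of the saline arrays, and the change was -0.54 ± 0.14 (limma adjusted p = 0.0106). In Astro-D2KO mice Rgs14 was 8.00, 7.80, 7.88 and 7.83 under saline and 7.56, 7.71, 7.93 and 7.25 after SE. These groups overlapped, and the change of -0.26 ± 0.14 did not pass the test (adjusted p = 0.227). The difference between the changes was 0.27, with a 95% interval from -0.15 to 0.70. The changes of Rgs14 without both doubted arrays were -0.51 in control (adjusted p = 0.0322) and -0.24 in Astro-D2KO mice (adjusted p = 0.343). With the genotypes averaged Rgs14 fell past the threshold with all arrays, and by a change of -0.38 without both doubted arrays (limma adjusted p = 0.0181).

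Cpne9, a copine that binds membranes in the presence of calcium, fell in Astro-D2KO mice. Its log2 level was 7.88, 7.73, 8.14 and 7.78 under saline and 7.08, 7.52, 7.38 and 7.03 after SE, without overlap, a change of -0.63 ± 0.15 (limma adjusted p = 0.00492). In control mice Cpne9 was 7.79, 7.85, 7.51 and 7.26 under saline and 7.43, 7.81, 7.32 and 7.499 after SE, which overlapped, a change of -0.09 ± 0.15 (adjusted p = 0.746). The difference of the changes was -0.54, with a 95% interval from -0.98 to -0.11 and an unadjusted p of 0.0167. After adjustment over all genes that p was 0.998, so a difference between genotypes in the response of Cpne9 did not pass the test. Its changes without both doubted arrays were -0.57 in Astro-D2KO (adjusted p = 0.0219) and -0.08 in control mice. With the genotypes averaged the change of Cpne9 was -0.36 ± 0.10 (limma adjusted p = 0.0115), and -0.33 without both doubted arrays (adjusted p = 0.0402).

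The other 7 genes of CA2 and CA3 did not pass the test in any SE comparison. Necab2, a neuronal calcium-binding protein, had changes of -0.06 ± 0.12 in control and -0.29 ± 0.12 in Astro-D2KO mice. Without both doubted arrays the control change of Necab2 was -0.20, its Astro-D2KO change -0.36 (limma adjusted p = 0.0135) and its averaged change -0.28 (adjusted p = 0.00361). Iyd, the iodotyrosine deiodinase that recycles iodide in the thyroid gland, had -0.24 ± 0.13 and -0.20 ± 0.13. St18, a zinc finger transcription factor, had 0.62 ± 0.32 and 0.03 ± 0.32, with levels from 7.70 to 9.23 in the control SE arrays and from 7.24 to 8.83 in the Astro-D2KO SE arrays. Pcp4, a regulator of calmodulin, had changes of -0.04 ± 0.12 and -0.17 ± 0.12, and Amigo2, an adhesion molecule, of 0.02 ± 0.11 and -0.20 ± 0.11. The changes of Map3k15, a kinase at the head of MAP kinase cascades, were -0.03 ± 0.13 and 0.21 ± 0.13, and those of the serine protease Prss23 were 0.12 ± 0.42 and 0.25 ± 0.42. With both doubted arrays left out, Prss23 had -0.20 in control and 0.46 in Astro-D2KO mice, Pcp4 had 0.01 in control mice and Map3k15 had -0.08 in control mice, none of them past the threshold.

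Among all 28 tested genes the direction of the log2 change was the same in both genotypes for 8 of 9 dentate, 6 of 9 CA1 and 8 of 10 CA2 and CA3 genes, counted without regard to any test. The share of all genes with the same direction is not given here, so these counts are no result about the subfield genes. SE and saline arrays did not overlap for 4 of the 28 genes in control mice, where 22.1% of all genes did not, and for 8 in Astro-D2KO mice, where 24.6% did not. When both doubted arrays were left out, 3 of the 28 genes rose and 5 fell in control mice, where 7.81% of all genes rose and 13.4% fell. In Astro-D2KO mice 2 rose and 4 fell (6.83% and 11.4% of all genes), and with the genotypes averaged 3 rose and 7 fell (11.3% and 19.9%).

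Astro-D2KO and control mice did not differ in any subfield gene past the limma threshold, under saline, after SE or averaged over treatments, and no gene had a response to SE that differed between genotypes past it. Over all genes 0% were called in each of these 4 comparisons. Unadjusted p-values below 0.05 were found for 0 of the 29 genes under saline, 2 after SE, 1 averaged over treatments and 1 for the difference in response, against 3.99%, 6.12%, 5.37% and 4.65% of all genes. After SE the 2 genes were Wfs1, higher in Astro-D2KO mice by 0.37 with a 95% interval from 0.07 to 0.68, and Rgs14, higher by 0.32 with an interval from 0.02 to 0.62. These differences without both doubted arrays were 0.48 (adjusted p = 0.207) and 0.32 (adjusted p = 0.515). Averaged over treatments the gene was Dcn, lower in Astro-D2KO mice by a log2 difference of -0.42 with an interval from -0.82 to -0.01. Under saline Necab2 was the subfield gene whose arrays did not overlap, at 8.40, 8.45, 8.66 and 8.37 in Astro-D2KO and 8.18, 8.35, 8.21 and 8.10 in control mice. The share of all genes without overlap in that comparison is not given here, so this separation is a description and no result about Necab2. The smallest adjusted p among the 29 genes was 0.999 under saline, 0.725 after SE, 0.901 averaged and 0.998 for the difference in response. Without both doubted arrays, 1, 5, 2 and 1 of all genes passed in these comparisons, and none of the subfield genes did.

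The subfield genes varied more between mice of a group than most genes on the array. The SD within groups was above that of the median gene, 0.151, for 27 of the 29 genes, Mpped1 and Man1a being the exceptions. It was above the 99th percentile of all genes for Tdo2 (0.701), Prss23 (0.700), St18 (0.531), Lct (0.498), Dsp (0.488) and Dcn (0.450). The median SD was 0.307 for dentate, 0.222 for CA1 and 0.198 for CA2 and CA3 genes. These SDs include both doubted arrays, and the comparison with all genes was not matched for level.

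The array of Astro-D2KO saline replicate 3 stood above its group in many of these genes at once. The CA1 gene Dcn lay 0.86 above the mean of its group in that array, Dsp 0.85, Lct 0.83, Calb1 0.69, Tdo2 0.61, Ccn3 0.52 and Pcp4 0.46. Prss23, by contrast, was lowest of the group there at 7.04. The mean log2 level of 9 markers of the choroid plexus, an epithelium that dissections of the hippocampus can carry, was 7.54 in that array and 6.18 to 6.42 in the rest of its group. Over the 16 arrays that mean ran from 5.88 to 8.00, with the highest values in control saline replicate 3, Astro-D2KO SE replicate 4, Astro-D2KO saline replicate 3 and control SE replicate 1. None of those 9 markers passed the test after SE in either genotype. Over all genes 8.42% rose and 13.7% fell in control mice, and 7.49% rose and 12.6% fell in Astro-D2KO mice. The part of these markers in the levels of the subfield genes was not tested.

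**Figure D3:**
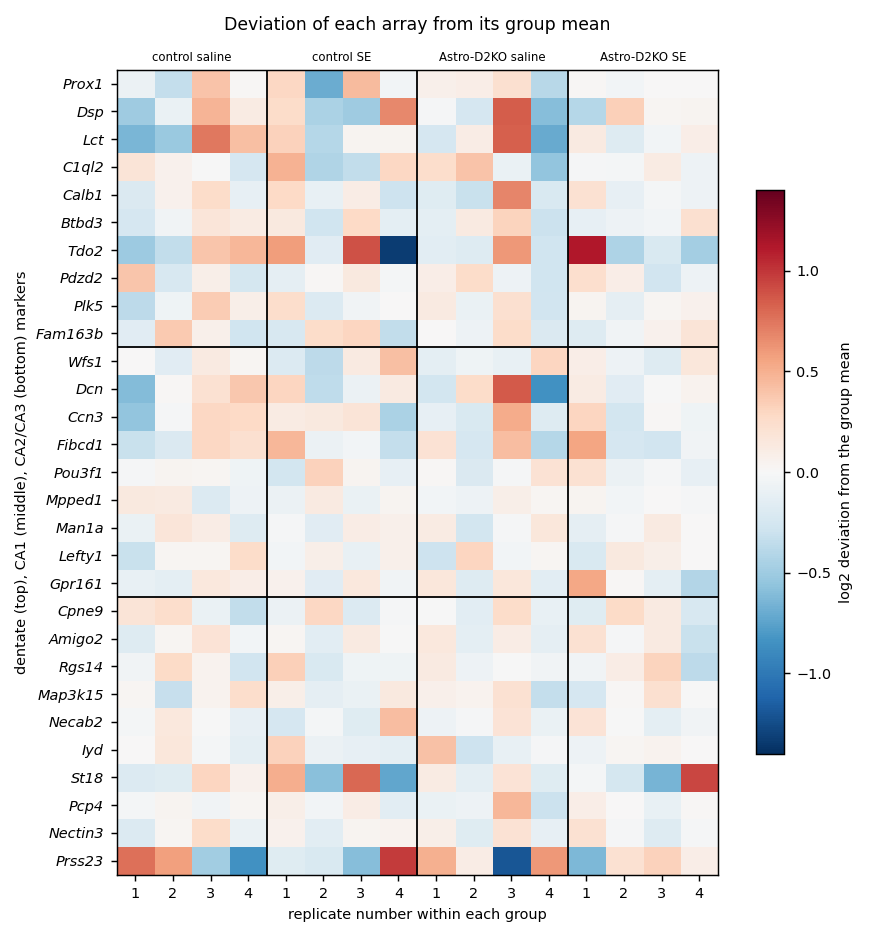
Deviation of each array's log2 level from the mean of its own group (colour, red above and blue below) for the 29 measured subfield markers (rows) in the 16 arrays (columns, by group and replicate number). The largest deviation below is that of Tdo2 in control SE replicate 4 (-1.33), and the largest above is that of Tdo2 in Astro-D2KO SE replicate 1 (1.12).

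Prss23 and Tdo2 moved in opposite directions from array to array, a pattern noticed after the values were seen. The pattern rests on the brighter of 2 Prss23 probe sets, whose SD within groups was 0.428 to 0.830. The dimmer probe set had SDs of 0.063 to 0.178, and it was not compared with Tdo2. Tdo2 had a mean level of 4.77, below the array medians of 5.77 to 5.82. The log2 level of Prss23 was 8.49, 8.29, 7.24 and 6.87 in control saline, 7.68, 7.63, 7.25 and 8.83 in control SE, 8.74, 8.35, 7.04 and 8.85 in Astro-D2KO saline and 7.87, 8.71, 8.81 and 8.58 in Astro-D2KO SE arrays. Tdo2 in the same order of groups was 4.21, 4.38, 5.11 and 5.19, then 5.86, 5.12, 6.16 and 3.94, then 4.24, 4.21, 4.997 and 4.11, and then 5.81, 4.26, 4.47 and 4.21. In each group the array lowest in Prss23 was the highest in Tdo2. Measured from group means, the signs were opposite in 15 of the 16 arrays, and the same held for Prss23 and the CA1 gene Ccn3. Of the 406 pairs of subfield genes these 2 pairs had the most opposite signs, and the median pair had 7. In both genes the doubted arrays lay at an end of their groups: control SE replicate 4 had the highest Prss23 and the lowest Tdo2 of its group, and Astro-D2KO SE replicate 1 the lowest Prss23 and the highest Tdo2.

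Other markers of the same cells, listed apart from the 30 genes, also changed in part. Of 12 other dentate genes 1 rose and 3 fell in control mice (8.42% and 13.7% of all genes) and 1 rose and 7 fell with the genotypes averaged (12.1% and 20.6% of all genes), with a median averaged change of -0.21 against -0.008 over all genes. With both doubted arrays left out, 1 rose and 2 fell in control mice (7.81% and 13.4% of all genes). On average 1 rose and 4 fell then (11.3% and 19.9% of all genes). Pcdh8, a protocadherin induced by neuronal activity, rose by 2.10 ± 0.15 on the averaged log2 scale (limma adjusted p = 1.24e-08), while Stxbp6, a binder of SNARE proteins, had a change of -0.74 ± 0.13 and Rfx3, a transcription factor of cilia, of -0.65 ± 0.10. Of 4 other CA1 genes 0 rose and 1 fell on average, against 12.1% and 20.6% of all genes. The one that fell was Spink8, a serine protease inhibitor (-0.51 ± 0.11, limma adjusted p = 0.00193). Within genotypes 0 of these 4 rose and 2 fell in control mice (8.42% and 13.7% of all genes). In Astro-D2KO mice 0 rose and 0 fell (7.49% and 12.6% of all genes). Without both doubted arrays 0 rose and 1 fell in control mice (7.81% and 13.4% of all genes). Of 8 other CA2 and CA3 genes 0 rose and 4 fell on average, against 12.1% and 20.6% of all genes. Without both doubted arrays 0 rose and 3 fell (11.3% and 19.9% of all genes). With all arrays the largest changes were those of Cacng5, a relative of AMPA receptor auxiliary subunits (-0.32 ± 0.06), Grik4, a kainate receptor subunit (-0.32 ± 0.10), and Vit, a matrix protein (-0.29 ± 0.08).

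General neuronal markers changed as well. Of 12 excitatory and pan-neuronal genes 2 rose and 8 fell on average, where 12.1% of all genes rose and 20.6% fell, with a median of -0.20. Neurod2 (-0.70) and Neurod6 (-0.62), transcription factors of excitatory neurons, had the largest falls, and Nefl, the light neurofilament, rose by 0.82. The mean level of these 12 genes lay between 10.79 and 10.87 in control saline arrays and between 10.62 and 10.72 in control SE arrays, which did not overlap, and their part in the falls of single subfield genes was not tested. Of 6 markers of the subiculum 3 rose and 0 fell on average, against 12.1% and 20.6% of all genes, namely the neuropeptide gene Nts (2.92), Tpbg (1.21) and the vesicular glutamate transporter gene Slc17a6 (0.57). Of 8 markers of the neocortex, which overlies the hippocampus, 3 also rose and 0 fell on average, against the same shares of all genes. They were the transcription factor genes Fezf2 (1.19) and Rorb (0.87), and Ccn2 (0.43), which encodes a matricellular protein. The mean level of the 8 neocortex markers was 6.94 to 7.14 in control saline against 7.21 to 7.56 in control SE arrays and 6.93 to 7.27 against 7.35 to 7.47 in Astro-D2KO mice, without overlap, and their part in the rises of the subiculum markers was not tested. Of 8 genes of immature granule cells 3 rose and 1 fell on average (12.1% and 20.6% of all genes), the largest rise being that of the transcription factor Sox11 (0.72), and Dcx, which encodes doublecortin, was the one that fell (-0.30). Within genotypes 2 rose and 0 fell in control mice (8.42% and 13.7% of all genes). In Astro-D2KO mice 1 rose and 2 fell (7.49% and 12.6% of all genes). Those 2 were Dcx (-0.38) and Calb2, which encodes calretinin (-0.97, limma adjusted p = 0.0389, against 0.07 in control mice). Calb2 is also 1 of the 5 mossy cell genes listed here, so its fall belongs to both lists. With the doubted arrays left out 3 of the 8 immature granule cell genes rose and 0 fell in control mice (7.81% and 13.4% of all genes). In Astro-D2KO mice 2 rose and 0 fell then (6.83% and 11.4% of all genes), and Calb2 had a change of -0.86 (limma adjusted p = 0.104). Of 5 mossy cell genes 1 rose, Nmb (0.20), and 1 fell, Drd2 (-0.36), on average, where 12.1% of all genes rose and 20.6% fell. Without both doubted arrays 0 rose and 1 fell on average (11.3% and 19.9% of all genes). In Astro-D2KO mice 1 of the 5 rose and 1 fell (7.49% and 12.6% of all genes), the latter being Calb2. As a measure of the response in the same arrays, all 12 immediate early genes rose in both genotypes, with a median of 3.06 in control and 2.98 in Astro-D2KO mice.

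**Figure D4:**
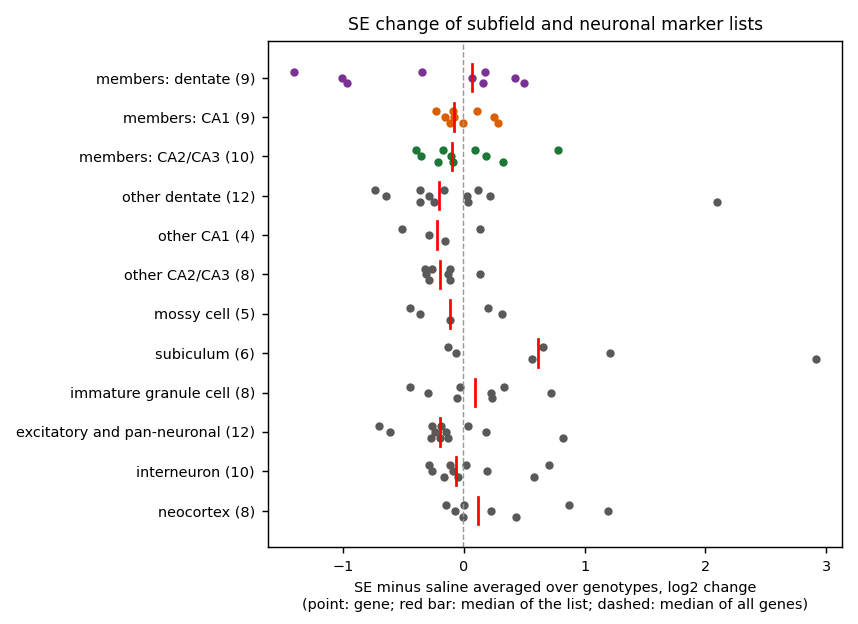
Log2 change from saline to SE averaged over genotypes (x axis) for each gene (points) of the subfield markers without Fam163b and of 9 other lists of neuronal genes (rows, number of genes in brackets), with the median of each list (red bar) and of all genes (dashed line). The medians of the dentate, CA1 and CA2 and CA3 markers lie at 0.06, -0.08 and -0.10 (0.011 to 0.143, -0.097 to -0.041 and -0.134 to -0.051 when single arrays are left out), while single dentate genes reach -1.41 (Dsp) and Pcdh8 of the other dentate list reaches 2.10.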

How the data were processed

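The deposited values are log2 levels made with RMA per the submitters' processing notes, which corrects background, normalises by quantiles and summarises probe sets. No label states the log base, which was taken from the range of the values (1.70 to 13.79) and of the array medians (5.77 to 5.82). Of 41345 probe sets, 23521 carried 1 gene symbol in the platform annotation, 1814 several and 16010 none. Entrez identifiers of 23328 single-symbol probe sets were found in RefSeq and 0 symbols changed. Each of the 22180 genes was read from its brightest probe set on average, with no filter on level. Prss23 was the subfield gene with a second, dimmer probe set. That probe set had SDs within groups of 0.063 to 0.178, against 0.428 to 0.830 for the one used.

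A mean per group was fitted over all 16 arrays in limma 3.58.1 (R 4.3.3). Contrasts were tested two-sided with Benjamini-Hochberg adjustment over all genes at a threshold of 0.05. On simulated arrays the fit was tested before use. Precision is limited by the 4 arrays per group, since arrays have no read depth. The subfield genes and the other gene lists were chosen with earlier results of these data known, the falls of Dsp, Lct and Fam163b among them, so they are no independent support. All measured subfield genes are named. So are up to 3 genes of each other neuronal list except interneurons, those with the largest averaged SE change past the threshold. Of 10 interneuron markers 2 rose and 2 fell on average (12.1% and 20.6% of all genes), and they are not named here. Alternatives covered normalisation, probe set choice, low genes, array weights, the variance prior, the replicate block and leaving out arrays. The counts of the other lists without both doubted arrays were added after the data were seen.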

Additional observations from a re-analysis of the deposited data

Results flagged for a closer look

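In groups of 4 arrays, a single array was marked where its gap to the nearest other array made up more of the group's range than Dixon's 95% critical value. This held for 8 of the 116 combinations of gene and group, where chance gives about 1 in 20. In Astro-D2KO saline replicate 3, Calb1 was at 9.64 (others 8.64 to 8.78), Tdo2 at 4.997 (4.12 to 4.24) and Ccn3 at 9.21 (8.47 to 8.57). In the array labelled Astro-D2KO SE replicate 1, Tdo2 was at 5.81 (others 4.21 to 4.47). Ccn3 was at 8.36 in the array labelled control SE replicate 4 (others 8.93 to 8.99). Wfs1 was at 9.87 in Astro-D2KO saline replicate 4 (others 9.43 to 9.50), Iyd at 6.71 in control SE replicate 1 (6.25 to 6.30) and Nectin3 at 8.78 in control SE replicate 2 (8.96 to 8.98).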

How the results depend on the processing

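Over the 24 alternatives, the number of subfield genes past the limma threshold after SE ranged from 5 to 8 in control mice, 4 to 7 in Astro-D2KO mice and 8 to 10 with the genotypes averaged, and it was 0 in the 3 genotype comparisons and for the difference in response. No call changed direction. The calls of Lct and Plk5 were tried in 23 alternatives, since both genes lay below the median mean level of all genes. The labels do not say whether the replicate numbers pair the mice. Deviations of same-numbered arrays correlated between -0.286 and 0.338 over 24 pairs, 4 of them over 0.1. Arrays with different numbers were not compared in this way, so a pairing is neither shown nor excluded. With the replicate block, 6, 6 and 9 genes passed after SE in control, Astro-D2KO and averaged comparisons and 0 in the other 4, and the one changed call was that of Lct in Astro-D2KO mice. The median of the CA2 and CA3 genes for Astro-D2KO against control under saline was 0.08, and 0.025 to 0.166 when single arrays were left out, the highest without control saline replicate 3. The median difference in response of the CA1 genes was 0.25, and 0.115 to 0.348 when single arrays were left out. It was 0.115 without Astro-D2KO SE replicate 1, 0.124 without control SE replicate 4 and 0.061 without both doubted arrays; the cause was not tested. The averaged SE median of the dentate genes (0.06) lay between 0.011 without Astro-D2KO saline replicate 2 and 0.143 without Astro-D2KO saline replicate 3, and moved by over 1.5 times when any one of 9 arrays was left out. That of the CA1 genes (-0.08) was -0.041 without control saline replicate 4, -0.045 without Astro-D2KO saline replicate 2 and -0.047 without Astro-D2KO SE replicate 1, and that of the CA2 and CA3 genes (-0.10) was -0.051 without Astro-D2KO saline replicate 3. The median of all genes moved by less than 0.1 under every scaling. Arrays give no count, so signal and the 4 arrays per group limit what could be detected.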
